A study of Mus musculus with 11 samples.

Results

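Vascular smooth muscle cells (VSMCs) were taken from single-cell RNA sequencing of cerebrovascular cells as the barcodes that passed a filter (500 or more genes detected, mitochondrial transcripts no more than 10%) and held at least 2 unique molecular identifiers (UMIs, each standing for 1 captured transcript) of Myh11 and at least 20 UMIs of Acta2, Tagln and Myh11 together. At most 3 UMIs of the endothelial genes Cldn5 and Flt1 and at most 1 UMI of the microglial genes P2ry12 and Cx3cr1 were allowed. This gate held 1996 of the 61625 cells that passed the cell filter. The cells came from 11 untreated mice, each sequenced as 1 library: 6 R182C-TgN3 mice (3 of 9 months and 3 of 6 months) and 5 WT-TgN3 mice (2 of 9 months and 3 of 6 months), of both sexes. R182C-TgN3 mice model CADASIL, a hereditary small vessel disease, with a human NOTCH3 transgene that carries a cysteine-changing variant. WT-TgN3 controls also carry human NOTCH3, without that variant, and both genotypes keep the endogenous mouse Notch3. The titles name the mutant line Tg350 and the control line Tg100, so variant and transgenic line cannot be told apart. The mice were processed in 4 batches named by date in the labels, and no batch held both ages, so age and batch cannot be told apart either. Of these batches, 1 held only R182C-TgN3 9-month mouse 3, so permutation values given within batches leave that mouse out.

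VSMCs wrap arteries and arterioles and set their diameter by contracting, through calcium entry and release, phosphorylation of myosin light chain and sliding of actin and myosin filaments. Pericytes, the other mural cells, lie along capillaries and share the Notch3 receptor with VSMCs, and cells between these types line the vessels that join arterioles to capillaries. NOTCH3 is the gene mutated in CADASIL, in which arterial VSMCs are the cells lost.

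The brains were digested to vessel fragments captured with antibodies to CD31, an endothelial protein, so the shares below are shares of that preparation. Libraries held from 17550806 to 64215050 UMIs. VSMCs numbered from 66 to 339 per mouse, and their median depth from 5410 to 10123.5 UMIs per cell. Of 65086 distinct barcode sequences, 966 occurred in more than 1 library, and 1 of these was a VSMC barcode. No doublet caller was run. Of 2765 barcodes that met the muscle part of the gate, 644 exceeded the endothelial limit and 188 the microglial limit, and 4 VSMCs had over 3 times the median UMIs of their mouse. The lower edge of the gate was thinly populated: 20 VSMCs had 20 to 24 muscle UMIs, and 22 cells just outside had 15 to 19.

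The transgene was examined first. Human NOTCH3 transcripts reached 202, 246 and 370 CPM (UMIs per 1000000 UMIs of the summed VSMCs of a mouse) as the lowest, median and highest value of the R182C-TgN3 mice. The WT-TgN3 mice held 17.9, 66.8 and 23.2 CPM at 6 months and 73.6 and 39.98 CPM at 9 months. Every R182C-TgN3 mouse lay above every WT-TgN3 mouse. Mouse Notch3 reached 542, 577 and 771 CPM in R182C-TgN3 mice (lowest, median, highest), against 694, 617, 676, 721 and 610 CPM in the WT-TgN3 mice, and the genotypes overlapped. The log2 ratio of NOTCH3 to Notch3 UMIs averaged -1.26 ± 0.412 over R182C-TgN3 mice (SD, n = 6) and -4.11 ± 0.929 over WT-TgN3 mice (SD, n = 5), a difference of 2.85 (exact 2-sided permutation p = 0.00216, the smallest that 462 permutations allow, and 0.00866 adjusted over 4 comparisons). Permuting within batches gave 2.79 (exact p = 0.0278, the smallest that permuting within these batches allows). Relative to the endogenous gene, transgene transcripts were higher in the VSMCs of the R182C-TgN3 line at both ages, by 3.18 at 6 months and 2.36 at 9 months on the log2 scale.

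**Figure D1:**
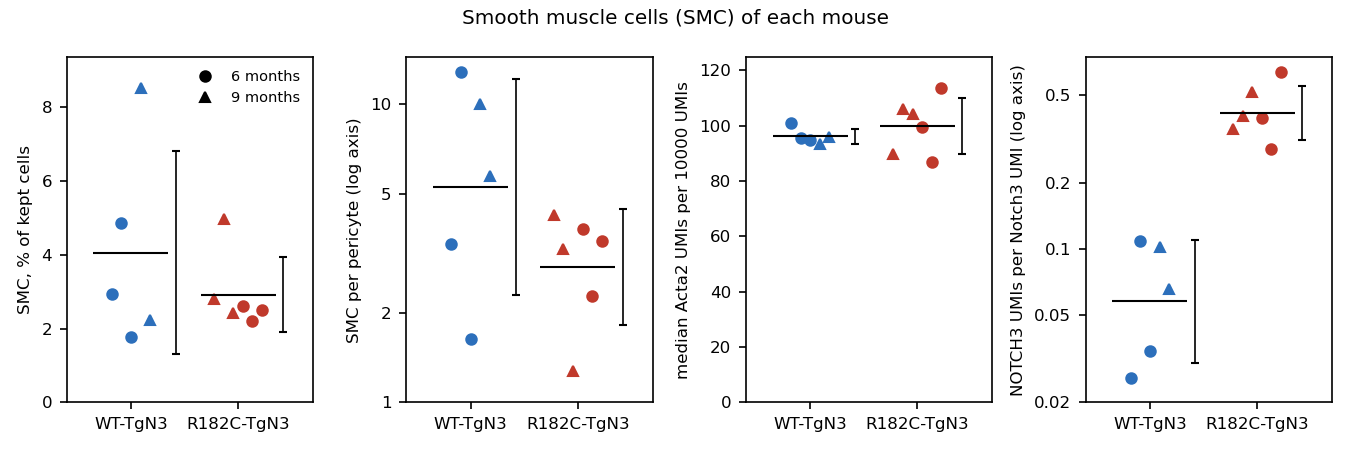
Share of VSMCs among kept cells, VSMCs per pericyte (log axis), median Acta2 UMIs per 10000 UMIs over VSMCs and NOTCH3 UMIs per Notch3 UMI (log axis), with 1 point per mouse, the line at the mean (of log values on log axes) and the bar 1 SD. The genotypes overlap in the first 3 panels and are separate in the last, where WT-TgN3 mice reach at most 0.108 and R182C-TgN3 mice at least 0.284.

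The label was checked on markers. Acta2, Tagln and Myh11 chose the cells, so their levels describe the gate only. Acta2, smooth muscle alpha-actin, made up 8973, 9895 and 11326 CPM (lowest, median and highest of 11 mice), Tagln, which encodes the actin-binding protein transgelin, 6006, 8632 and 10320 CPM, and Myh11, the smooth muscle myosin heavy chain, 4179, 4782 and 6380 CPM. Tpm2 and Pln were not used by the gate. Tpm2, which encodes beta-tropomyosin of the thin filament, was at 3214, 4005 and 4933 CPM in VSMCs, and Pln, which encodes phospholamban, the inhibitor of the sarcoplasmic calcium pump, at 1117, 1254 and 1493 CPM. No mouse stood apart in either gene. Tpm2 was detected in 99.7% of VSMCs (exact 95% interval 99.3 to 99.9), 35.3% of pericytes and 5.28% of endothelial cells. Pln was detected in 97.3% of VSMCs (96.5 to 98.0), 0.731% of pericytes (0.1996 to 1.86) and 3.25% of endothelial cells and 1.55% of microglia. The endothelial and microglial cells set beside VSMCs were gated on their own genes, with no limit on muscle or pericyte transcripts, so their shares are not a measure of free RNA alone. The pericytes were allowed at most 5 UMIs of Acta2, Tagln and Myh11, so their low shares of Tpm2 and Pln may follow in part from that limit. The mean depths behind these shares were 8415 UMIs in VSMCs, 4315 in pericytes and 7064 in endothelial cells, and the intervals cover counting error only.

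The pericyte markers Kcnj8 and Abcc9, which encode subunits of an ATP-sensitive potassium channel, were rare in VSMCs. Kcnj8 was detected in 1.40% (0.934 to 2.02) and Abcc9 in 1.55% (1.06 to 2.20) of VSMCs, against 1.05% and 1.54% of endothelial cells, 0.189% and 0.428% of microglia and 73.1% and 87.9% of pericytes. Both genes helped to choose the pericytes, so the pericyte shares describe that gate only. The other pericyte markers were not absent. Higd1b was detected in 63.7% of VSMCs, Vtn (vitronectin) in 40.6% and Atp13a5 (a transport ATPase) in 11.9%, each above the endothelial share of 2.82%, 3.84% and 1.7%. Of the 5 VSMC markers, Tpm2 and Pln bear on the label, and both were detected in nearly every cell of the gate. At least 5 UMIs of the 5 pericyte markers together were present in 588 of the 1996 cells. These cells were not examined as a group, and pericyte genes are described below by Acta2 level over all VSMCs.

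For comparison, pericytes were taken as cells with at least 5 UMIs of Kcnj8, Abcc9, Higd1b, Atp13a5 and Vtn, at most 5 UMIs of Acta2, Tagln and Myh11, and the same endothelial and microglial limits. There were 547, from 22 to 127 per mouse. Both populations were chosen by measured transcripts, so all values between them describe the gated cells: adjusted p-values from edgeR's quasi-likelihood test with Benjamini-Hochberg adjustment, with the mouse as block, serve to count genes, and the genes of either gate were left out. This gate also held other cells. Summed over 8 fibroblast markers, pericytes had 1484 CPM (range over mice 248 to 7034) and VSMCs 109 CPM (81.1 to 190). Over 5 choroid plexus markers pericytes had 381 CPM (60.8 to 194800) and VSMCs 155 CPM (10.1 to 220), with Ttr at 177609 CPM in the pericytes of WT-TgN3 9-month mouse 2. A narrower pericyte gate, added after seeing these values, required at least 1 UMI of Rgs5 and at most 2 UMIs of 5 fibroblast genes and of 4 choroid plexus genes. It held 453 pericytes, and 9 mice had the minimum of 20. Values from it are given as the narrower gate. The genes that this gate added, such as Rgs5 and Slc6a13, were not taken out of its fit. Their values there, and list counts that include them, follow in part from the gate.

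VSMCs exceeded pericytes in 1385 of 5974 tested genes (23.2%) and fell short of them in 1516 (25.4%), so 48.6% were called. In 791 genes (13.2%) the values of the mice did not overlap. The narrower gate gave 1521 higher and 1476 lower of 5612. With the first gate, median gene length (GENCODE vM21) was 27325 bp for higher, 60319 bp for lower and 29803 bp for genes not called. The part of gene length in these calls was not tested. The contractile genes formed the clearest group: 31 of 34 tested members were higher and 0 lower, with a median log2 fold change of 3.54 beside -0.04 over all genes tested, and 30 higher with the narrower gate. Cnn1, which encodes calponin, an actin-binding regulator of myosin, was at 146, 244 and 283 CPM in VSMCs (lowest, median, highest) and had 0 UMIs among all pericytes, which made it at least 191-fold higher (3 counts taken as the floor of the summed pericytes). Pdlim3, a Z-line protein gene of actin bundles, ran from 289 to 377 CPM in VSMCs and from 0 to 16.7 CPM in pericytes (log2 fold change 6.71 ± 0.302, SE). Myocd, the transcriptional coactivator that drives smooth muscle genes through serum response factor, ran from 202 to 397 CPM against 0 to 11.4 CPM (6.26 ± 0.276). Mrtfa, Mrtfb and Tpm4 were the 3 members not called, with log2 fold changes of 0.23, 0.23 and -0.20.

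Of 27 calcium handling and ion channel genes tested, 16 were higher and 5 lower in VSMCs, and with the narrower gate 14 and 6 of 24. Over all genes tested 23.2% were higher and 25.4% lower, so lower members were no more frequent than over all genes. Pln had the highest of these fold changes (9.58 ± 0.328, SE), with at most 10.3 CPM in the pericytes of any mouse. Kcnma1, the pore of the large-conductance calcium-activated potassium channel that limits constriction, was at 349, 545 and 706 CPM in VSMCs and at 0 to 25.7 CPM in pericytes (7.26 ± 0.372). Kcnab1, a potassium channel beta subunit, was at 1116, 1807 and 2295 CPM against 0 to 66.9 CPM (6.88 ± 0.317). Ryr2, the ryanodine receptor that releases stored calcium, was at 164, 288 and 376 CPM against 0 to 33.4 CPM (6.33 ± 0.411). The VSMC and pericyte values of these 4 genes did not overlap in any mouse. The genes on the pericyte side included Itpr2, an inositol trisphosphate receptor (-3.25), and Casq2, a calcium-storage protein (-2.61).

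Among receptors and enzymes of vasoactive signals, 6 of 12 were higher and 4 lower, beside 23.2% and 25.4% of all genes tested. Ramp1, a subunit of the receptor for the dilator peptide CGRP, ran from 146 to 227 CPM in VSMCs and from 0 to 51.5 CPM in pericytes (log2 fold change 5.17 ± 0.398, SE), while its partner Calcrl was not called (0.03). Pde3a, a phosphodiesterase that degrades cyclic AMP, was higher (2.94), and the thromboxane receptor gene Tbxa2r (-2.26) and the adenosine receptor gene Adora2a (-2.15) were lower.

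Matrix genes split evenly, 13 higher and 13 lower of 32, beside 23.2% and 25.4% of all genes tested. With the narrower gate, which limits UMIs of fibroblast genes such as Dcn, the counts were 17 and 8 of 29. Elastin (Eln, 4.01), laminin alpha 5 (Lama5, 4.03 ± 0.252) and Ltbp1, which tethers latent TGF-beta to the matrix (4.08 ± 0.223), were higher in VSMCs. Laminin beta 1 (Lamb1, -6.18), nidogen 2 (Nid2, -3.89) and nidogen 1 (Nid1, -2.03) were lower.

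Of 13 Notch pathway genes, 6 were higher and 3 lower, beside 23.2% higher and 25.4% lower of all genes tested. Lower members were thus no more frequent than over all genes. Mouse Notch3 was at 542 to 771 CPM in VSMCs and 268 to 1133 CPM in pericytes and was not called (0.07 ± 0.178), but with the narrower gate it was lower in VSMCs (-0.42, adjusted p from edgeR 0.0012). Human NOTCH3 was lower in VSMCs with both gates (-1.92 ± 0.233, and -2.23 with the narrower gate). Notch1 was also lower (-1.44), and the Notch feedback regulator Nrarp (1.33), the ligand Jag1 (1.08), the target Hes1 (1.23) and Nrip2 (4.31 ± 0.279) were higher.

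The pericyte list, without the 5 gate genes, had 13 of 20 lower and 3 higher, with a median of -1.68. With the narrower gate, which requires the member Rgs5, 17 of 21 were lower. The largest differences on the pericyte side were in Ggt1, a gamma-glutamyltransferase, with 1 UMI in all VSMCs and 302 in all pericytes. Grm3, a metabotropic glutamate receptor gene, was at 0 to 14.9 CPM in VSMCs and 365 to 1912 CPM in pericytes (-8.22 ± 0.349). Anpep, the aminopeptidase CD13, was at 0 to 5.53 against 41.98 to 150 CPM (-5.42 ± 0.252), and Art3 at 11.5 to 27.6 against 168 to 1000.1 CPM (-4.76 ± 0.178). The VSMC and pericyte values of these 4 genes were separate in all mice. Rgs5, a regulator of G-protein signalling often used as a pericyte marker, differed by less: it was at 666, 1135 and 2044 CPM in VSMCs and 1211, 4130 and 6637 CPM in pericytes (-1.52 ± 0.191), and the populations overlapped. Mcam (2.08), Gja4 (0.88) and Slc38a11 (0.51) of this list were higher in VSMCs. Among the 10 largest falls, the fibroblast and meningeal genes Dcn (-7.27) and Abca8a (-7.32) were not tested with the narrower gate, and Apod went from -7.27 to -2.57.

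**Figure D2:**
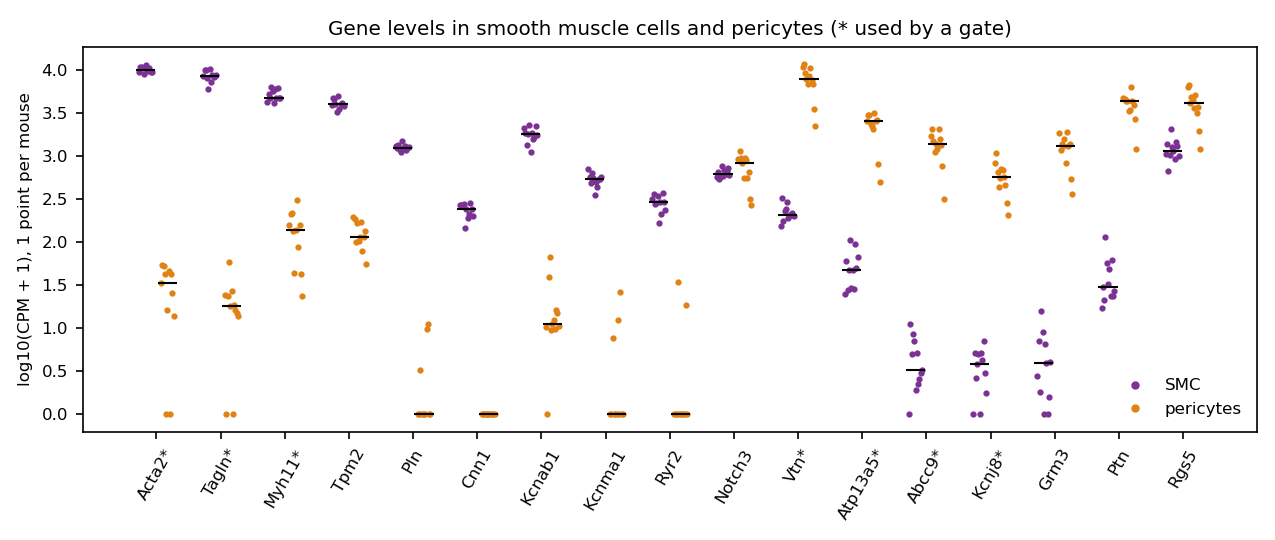
Levels of 17 genes as log10(CPM + 1) in VSMCs and pericytes, with 1 point per mouse and a line at the median, genes used by a gate marked with an asterisk. Pln, Cnn1, Kcnma1 and Ryr2 are at 0 in the pericytes of most mice, Notch3 overlaps, and Vtn, Grm3 and Ptn lie higher in pericytes.

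Further groups differed between the mural cells. Immediate early and heat shock genes, which rise during tissue dissociation, were higher in VSMCs in 20 of 22 and lower in 1 (median 2.66), with Fos from 4529 to 9109 CPM in VSMCs and from 162 to 2024 CPM in pericytes, Nr4a1 at 4.29, Atf3 at 4.04 and Klf2 at 3.75 on the log2 scale. Summed, this dissociation list took 29254 CPM in VSMCs, 4393 in pericytes, 18840 in endothelial cells and 31667 in microglia (medians over mice). Endoplasmic reticulum stress genes were lower in 13 of 17 and higher in 3 (median -1.26), with the chaperone genes Sdf2l1 at -3.29, Pdia4 at -1.82 and Manf at -1.71. The nuclear genes of oxidative phosphorylation depended on the pericyte gate: 36 of 73 were higher and 1 lower (median 0.45), and 63 higher and 0 lower with the narrower gate (median 0.84), with Ndufa4, an electron transport subunit, going from 1.57 to 4.205.

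VSMCs differed among themselves in Acta2. Within a mouse the 10th percentile lay between 41.7 and 60.3 Acta2 UMIs per 10000 UMIs and the 90th percentile between 141 and 183. The cells of each mouse were divided into 3 equal groups by Acta2 UMIs over all UMIs outside Acta2, Tagln and Myh11, called Acta2-low, Acta2-middle and Acta2-high cells. These are ranges of a continuous measure, not cell types, and 722 cells lay within 10% of a cut. Median Acta2 per 10000 UMIs was 61.0, 95.7 and 137 in Acta2-low, -middle and -high cells (medians over mice). Genes were compared between Acta2-high and Acta2-low cells of the same mouse, without the 7 gate genes. Since Acta2 chose the groups and other genes of the same cells move with it, the counts describe the range.

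These groups also differed in measures of the cells. Median Malat1, a nuclear RNA, was 520, 491 and 440 UMIs per 10000 in Acta2-low, -middle and -high cells and lower in the Acta2-high cells of 11 of 11 mice. The mitochondrial share was 6.61%, 7.57% and 7.52%, higher in Acta2-high than Acta2-low cells in 10 of 11 mice, and median UMIs per cell were 7953, 7520 and 7194. Markers of other cells were summed in the same groups. Endothelial markers were at 265, 241 and 232 CPM, microglial markers at 361, 387 and 394 CPM and fibroblast markers at 107, 97.9 and 101 CPM (medians over mice). Other sums were lower in Acta2-high cells. The 5 neuron markers were at 65.4, 23.4 and 2.65 CPM. Over mice they ranged from 25.4 to 86.6 CPM in Acta2-low and from 0 to 12.0 CPM in Acta2-high cells. Their sum was 33.4 CPM in pericytes, 14.5 CPM in endothelial cells and 3.77 CPM in microglia (medians over mice). Only 1 of these 5 genes passed the low count filter in the VSMC fit between genotypes. The 4 markers of perivascular macrophages were at 11.9, 5.28 and 2.71 CPM, and the 5 choroid plexus markers at 152, 96.6 and 86.2 CPM. The part of these transcripts in the gene differences was not tested. Because Malat1 differed between the groups, a comparison matched on Malat1 was added after seeing the data. The cells of a mouse were sorted by Malat1 share and taken 3 at a time. The highest Acta2 cell of each 3 was compared with the lowest. Markers of other cells were not matched. This left a median of 49448 and 47925 CPM Malat1 in the high and low cells, with 13504 and 6648 CPM Acta2. The unmatched Acta2-high and Acta2-low cells had 14133.5 and 5820 CPM Acta2, so the matched cells also lay closer in Acta2. Values from it are given as matched.

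Acta2-high cells exceeded Acta2-low cells in 901 of 5005 tested genes (18.0%) and fell short in 925 (18.5%), so 36.5% were called, and in 158 (3.16%) the values of the mice did not overlap. Matched, the counts were 576 higher and 603 lower of 4925. Of the matched calls, 1106 were also called without matching and 0 of these in the opposite direction. Called genes differed in length over the gene body (GENCODE vM21): the median was 13349 bp for higher, 76501 bp for lower and 35084 bp for genes not called. The part of gene length and RNA quality in the unmatched calls was not tested further.

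Contractile genes were higher along with Acta2 in 28 of 35 and lower in 2 (median 0.62 beside -0.01 over all genes), and in 28 and 1 when matched. Summed, the 37 listed genes took 36029, 44040 and 53007 CPM in Acta2-low, -middle and -high cells. Cnn1 had the steepest gradient of the list, with 81.6, 225 and 451 CPM (medians over mice of Acta2-low, -middle and -high cells), a range of 41.4 to 120 CPM in Acta2-low cells and 271 to 535 CPM in Acta2-high cells (log2 fold change 2.33 ± 0.101, SE, and 1.55 matched). Acta2-low and Acta2-high cells did not overlap in Cnn1. Tpm2 went from 2466 to 5523 CPM (1.29 ± 0.0537, and 0.92 matched). Fhl1, a LIM-domain protein gene, was higher (1.51 ± 0.227), as was Ppp1r14a, which encodes the inhibitor of myosin phosphatase CPI-17 (1.25), and Smtn, which encodes smoothelin (1.06). Tpm4 (-0.58) and Mrtfa (-0.33) were lower. Myocd (-0.16), Mrtfb (-0.22), Sncg (-0.03), Cald1 (0.02) and Vcl (-0.07) were not called.

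Of the 10 largest rises, several do not belong to the contractile apparatus. Ptgis, prostacyclin synthase, which makes a dilator prostanoid, was at 59.0, 112 and 233 CPM in Acta2-low, -middle and -high cells (1.88 ± 0.131, and 1.39 matched). Fbxl22, a muscle F-box protein gene, was at 112, 199 and 270 CPM (1.57, and 1.00 matched). Cd59a, an inhibitor of complement lysis, was at 20.1, 44.5 and 91.0 CPM (2.12), Sh3bgr at 50.3, 122 and 194 CPM (1.88) and Plin4, a lipid droplet protein gene, was also among them (1.61). The other rises were BC051019 (2.47), Efhd1 (2.05), Nxnl2 (1.94) and Plekho1 (1.56).

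Many smooth muscle genes are controlled by serum response factor at the CArG box, so the RefSeq promoters of genes that rose with Acta2 are shown (build GRCm38.p6, the 250 bases before the RefSeq start of the gene, 5′ to 3′). Acta2 defines the gradient, Cnn1 and Fbxl22 are among the 10 largest rises, and Myl9, a myosin light chain gene of the contractile list (0.84), was chosen after its values were seen. Capitals mark a strict CArG box.
Acta2 (chr19:34255374-34255623, minus strand): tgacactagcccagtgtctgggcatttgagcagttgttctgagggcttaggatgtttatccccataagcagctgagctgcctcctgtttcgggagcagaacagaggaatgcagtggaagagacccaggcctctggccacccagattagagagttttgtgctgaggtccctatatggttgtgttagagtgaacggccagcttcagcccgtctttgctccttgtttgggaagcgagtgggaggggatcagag
Cnn1 (chr9:22099003-22099252, plus strand): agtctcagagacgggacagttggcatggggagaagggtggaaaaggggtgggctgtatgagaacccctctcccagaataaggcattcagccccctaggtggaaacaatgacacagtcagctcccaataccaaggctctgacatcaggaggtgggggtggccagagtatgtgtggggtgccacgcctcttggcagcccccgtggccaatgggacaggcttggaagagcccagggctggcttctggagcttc
Fbxl22 (chr9:66514594-66514843, minus strand): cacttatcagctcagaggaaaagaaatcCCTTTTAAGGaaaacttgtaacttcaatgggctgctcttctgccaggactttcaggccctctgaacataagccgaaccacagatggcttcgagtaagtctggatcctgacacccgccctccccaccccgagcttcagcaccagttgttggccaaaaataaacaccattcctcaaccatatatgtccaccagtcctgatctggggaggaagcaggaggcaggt
Myl9 (chr2:156775214-156775463, plus strand): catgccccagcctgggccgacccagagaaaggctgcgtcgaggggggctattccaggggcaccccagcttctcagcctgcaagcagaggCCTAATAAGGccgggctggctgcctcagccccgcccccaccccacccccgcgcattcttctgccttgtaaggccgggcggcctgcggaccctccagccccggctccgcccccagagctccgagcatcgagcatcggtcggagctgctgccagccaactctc
The search covered 300 bases, including 50 after the start, for both strands, which are equivalent for this palindromic motif. The strict motif was CC, 6 bases of A or T, then GG. Acta2 and Cnn1 held no strict match in this window. Fbxl22 held CCTTTTAAGG from position -222 and Myl9 CCTAATAAGG from position -161, counted from the gene start. The printed Acta2 stretch does hold ccctatatgg and ccttgtttgg, each 1 base away from the strict motif. Such near matches were not counted in any gene. Of all genes with a promoter in the table, 488 of 27025 (1.81%) held a match, against 2.84% of genes higher and 2.1% of genes lower in Acta2-high cells, 2.13% of genes tested, 6 of 32 contractile genes (18.8%) and 1 of the 8 genes among the 10 largest rises that had a promoter (12.5%), each counted over genes with a promoter in the table. A match is a description of the letters and not of a bound site.

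The Acta2-low cells carried transcripts of pericyte genes. In the pericyte list 12 of 19 were lower in Acta2-high cells and 1 higher, with a median of -0.94, and the same counts with -0.64 when matched. Summed, the list fell with Acta2: 7221, 5001 and 3582 CPM. Rgs5 was at 2116, 940 and 266 CPM (-2.83 ± 0.148, and -2.03 matched), and the lowest value of Acta2-low cells, 1310 CPM, lay above the highest of Acta2-high cells, 430 CPM. Atp13a5 was at 90.2, 39.0 and 2.88 CPM (-4.24 ± 0.237, and -2.37 matched). Vtn was at 380, 198 and 58.4 CPM (-2.24) and Ndufa4l2 at 273, 133 and 48.8 CPM (-2.12). The channel genes of pericytes were low throughout: Kcnj8 was at most 14.4 CPM and Abcc9 at most 21.6 CPM in the Acta2-low cells of any mouse, with Kcnj8 at 0 in the Acta2-high cells of all mice. Mcam (0.57) was higher, and Cspg4 (-0.14), Gja4 (-0.06) and Foxs1 (-0.15) were not called. UMIs of the 5 pericyte gate genes numbered 6.81, 3.90 and 1.90 per cell. Set beside pericytes, the genes of this list stood at unequal levels in Acta2-low cells. Rgs5 was at 2116 CPM in Acta2-low cells and 4130 CPM in pericytes (medians over mice), and Vtn at 380 and 7817 CPM. Abcc9 was at 6.44 CPM in Acta2-low cells and 1394 CPM in pericytes, Kcnj8 at 5.96 and 577 CPM, and Grm3 at 7.42 and 1304 CPM.

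**Figure D3:**
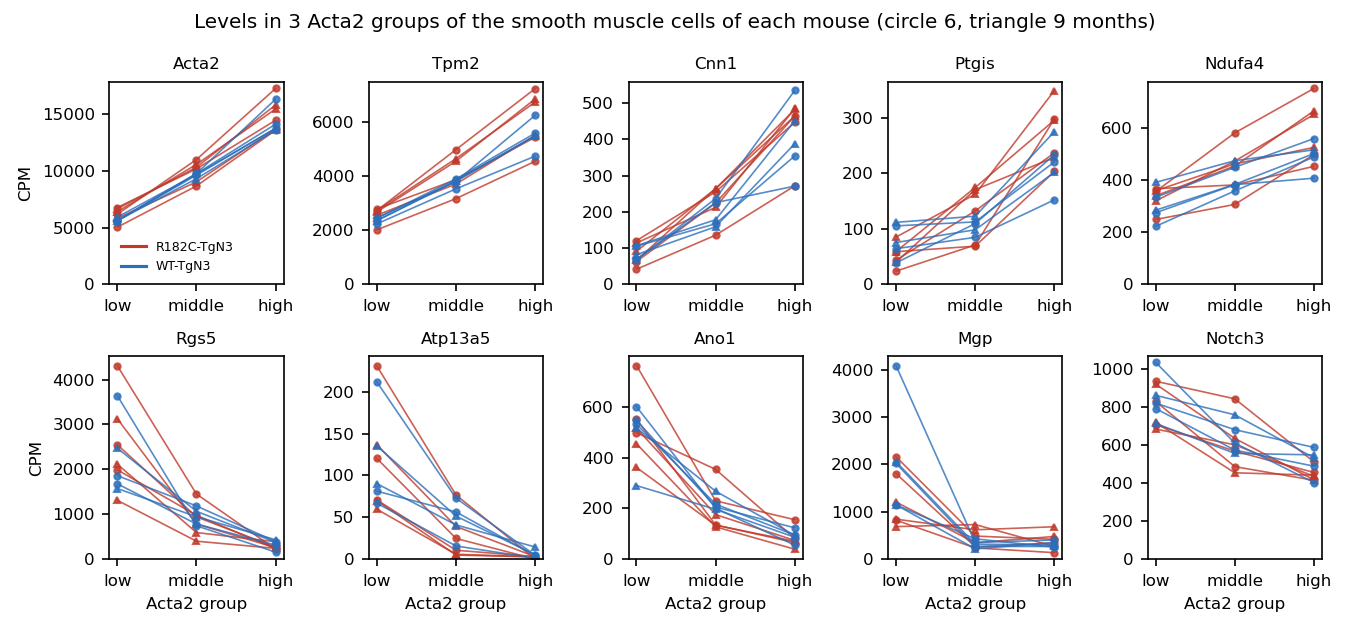
CPM of 10 genes in the 3 Acta2 groups (low, middle, high), with 1 line per mouse coloured by genotype. Acta2, Tpm2, Cnn1, Ptgis and Ndufa4 are higher and Rgs5, Atp13a5, Ano1, Mgp and Notch3 lower in Acta2-high than in Acta2-low cells in every mouse shown.

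Of 26 calcium and channel genes, 4 were higher and 12 lower in Acta2-high cells (median -0.28, and 4 and 11 when matched). Over all genes tested 18.0% were higher and 18.5% lower, so higher members were no more frequent than over all genes. Ryr2 (0.97), Kcnma1 (0.83), Pln (0.55 ± 0.0638) and Kcnmb1, the beta subunit of the same potassium channel (0.37), were the 4 higher. Ano1, the calcium-activated chloride channel that depolarises contractile cells, was at 517, 200 and 81.3 CPM (-2.51 ± 0.104, and -1.73 matched), with 290 CPM as the lowest value in Acta2-low and 155 CPM as the highest in Acta2-high cells. Trpc6, a cation channel opened by stretch and receptor signals, was at 57.7, 19.99 and 7.37 CPM (-2.87), Casq2 at 70.9, 32.9 and 16.4 CPM (-1.97 ± 0.185) and Itpr2 at 51.6, 27.3 and 14.7 CPM (-1.62). Casq2 and Itpr2 were also lower in VSMCs than in pericytes.

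Vasoactive genes were lower in Acta2-high cells in 8 of 10 and higher in 1. Calcrl went from 81.8 to 29.5 CPM (-1.40, and -1.06 matched) and Ednra, the endothelin A receptor gene, from 364 to 246 CPM (-0.58). Ramp1 was the member that was higher, from 116 to 226 CPM (1.08, and 0.75 matched), so the 2 genes of the CGRP receptor ran in opposite directions.

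Of 28 matrix genes, 14 were higher and 4 lower in Acta2-high cells, and 8 and 4 of 29 when matched. Without matching, lower members were no more frequent than the 18.5% over all genes tested. Col8a1, a short-chain collagen of vessel walls, was at 29.6, 72.0 and 96.6 CPM (1.42, and 1.13 matched), and Ogn, osteoglycin, at 149, 173 and 348 CPM (1.35, and 0.94 matched). Elastin was higher (0.92), and Fn1, fibronectin, was higher (1.01) but not called when matched (adjusted p from edgeR 0.13). Mgp, the matrix Gla protein that inhibits vascular calcification, was at 1205, 346 and 343 CPM (-2.02 ± 0.168, and -1.86 matched).

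Notch pathway genes were lower in Acta2-high cells in 9 of 13 and higher in 0 (median -0.44, and 8 of 13 lower when matched). Notch3 was at 820, 601 and 456 CPM (-0.70 ± 0.0736, and -0.47 matched), lower in Acta2-high than in Acta2-low cells in each mouse. Human NOTCH3 showed the same direction (-1.08, and -0.77 matched), and this difference did not differ between genotypes beyond error (interaction 0.03 ± 0.231, SE). Nrarp, a Notch target, was at 140, 92.3 and 44.3 CPM (-1.53, and -1.10 matched). Notch1 (-0.82), Maml2 (-0.74), Jag1 (-0.50), Hes1 (-0.44), Nrip2 (-0.39) and Heyl (-0.36) were lower, and Notch2 (-0.09), Hey2 (-0.12), Rbpj (-0.28) and Maml1 (-0.40) were not called.

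Nuclear genes of oxidative phosphorylation moved together by a small amount: 71 of 73 were higher in Acta2-high cells, 0 lower, and Ndufs4 (0.08) and Sdha (0.07) were not called. The median was 0.49, and 57 of 73 were higher with a median of 0.31 when matched. Their sum was 16209, 19331 and 21115 CPM in Acta2-low, -middle and -high cells. Ndufa4 was at 334, 449 and 516 CPM (0.84 ± 0.0782, and 0.56 matched). Of the glycolysis list 6 of 13 were higher and 1 lower, with Pkm, pyruvate kinase, from 166 to 220 CPM (0.53). Dissociation-stress genes were lower in 17 of 22 and higher in 2 (median -0.35), with Egr1 going from 2235 to 1172 CPM (-0.89), and 13 lower when matched. Of 14 endoplasmic reticulum stress genes 5 were lower and 0 higher, with Atf6 at -0.57 and Hspa5 at -0.41, and of 6 inflammation genes 4 were lower.

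**Figure D4:**
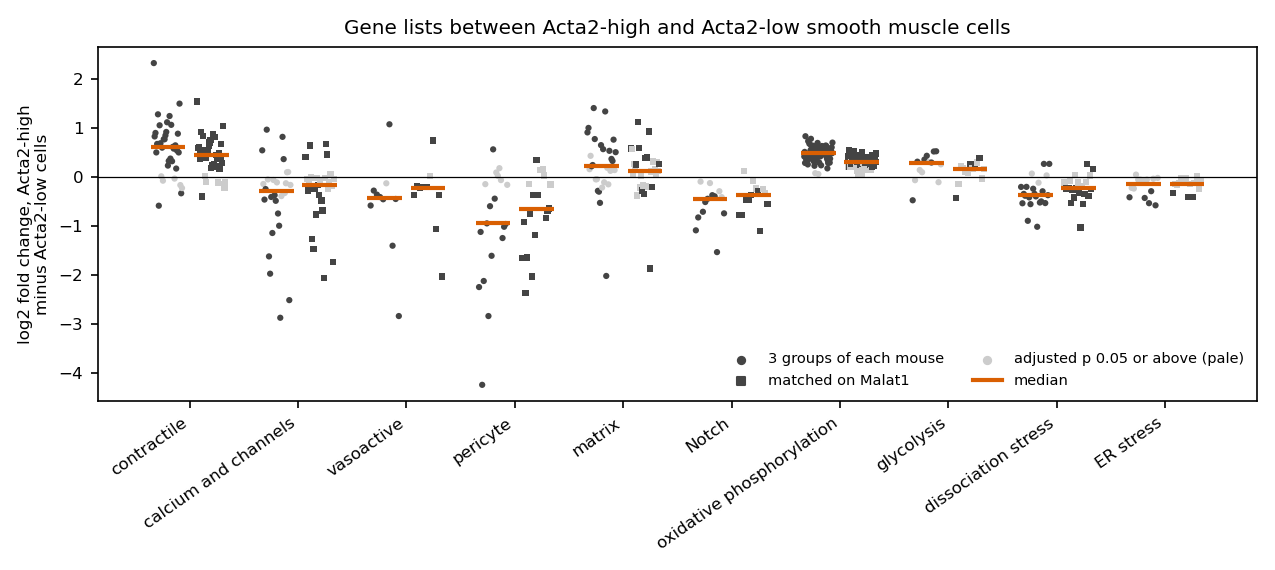
Log2 fold change between Acta2-high and Acta2-low cells for each tested gene of 10 lists, as circles for these groups and squares for the comparison matched on Malat1, pale where adjusted p was 0.05 or above, with the median as a line. The contractile and oxidative phosphorylation medians are 0.62 and 0.49, and the pericyte median is -0.94.

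Among the largest falls outside these lists were Ccnd1, cyclin D1, at 67.2, 16.5 and 5.19 CPM in Acta2-low, -middle and -high cells (-3.48 ± 0.211, and -2.99 matched), Lamc3, a laminin gamma chain, at 70.7, 22.2 and 4.91 CPM (-3.25), and Ptn, pleiotrophin, at 70.7, 14.4 and 8.11 CPM (-3.25). Ptn was also on the pericyte side of the comparison of mural cells, at 16.1 to 113 CPM in VSMCs and 1214 to 6270 CPM in pericytes. Lin7a (-4.09), Phlda1 (-2.94) and Cdh4 (-2.52) were also among the 10 largest falls.

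The number of VSMCs was compared between genotypes because loss of these cells is the arterial lesion of CADASIL. VSMCs were 2.80%, 4.97% and 2.42% of kept cells in the R182C-TgN3 mice of 9 months and 2.62%, 2.22% and 2.51% in those of 6 months. In WT-TgN3 mice they were 2.95%, 4.85% and 1.76% at 6 months and 8.51% and 2.24% at 9 months. Wilson 95% intervals were 1.46 to 2.12% for the lowest share and 7.68 to 9.41% for the highest, so the spread between mice exceeded the counting error. The means were 2.92 ± 1.02% for R182C-TgN3 (SD, n = 6) and 4.06 ± 2.75% for WT-TgN3 (SD, n = 5), a difference of -1.14 that lay within the spread (exact 2-sided permutation p = 0.418, 0.448 adjusted over 4 comparisons), with -1.04 within batches (p = 0.556, exact). It ran from -1.71 without WT-TgN3 6-month mouse 3 to -0.03 without WT-TgN3 9-month mouse 1, which had the highest share. VSMCs per pericyte numbered 4.26, 3.27, 1.28, 3.82, 2.28 and 3.49 in R182C-TgN3 mice and 3.39, 12.8, 1.63, 9.97 and 5.74 in WT-TgN3 mice. Pericytes here are those of the first gate, which also held other cells. The mean log2 ratio was 1.51 ± 0.646 (n = 6) against 2.40 ± 1.20 (n = 5), lower by a difference of -0.89 (p = 0.145, exact permutation, 0.290 adjusted). Within batches it was -0.65 (p = 0.306, exact), without R182C-TgN3 9-month mouse 3, which had 1.28 VSMCs per pericyte. Without WT-TgN3 6-month mouse 3, which had 1.63 VSMCs per pericyte, it was -1.31 (p = 0.0190, exact), and over the 11 mice left out in turn p ran from 0.0190 to 0.329. Fewer VSMCs in the vessel and fewer VSMCs recovered from it cannot be told apart here.

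Acta2 per VSMC did not separate the genotypes. The median was 86.8 to 113 UMIs per 10000 in R182C-TgN3 and 93.4 to 101 in WT-TgN3 mice, with means of 99.9 ± 10.1 (n = 6) and 96.1 ± 2.82 (n = 5), a difference of 3.79 (p = 0.448, exact permutation) that ran from 1.08 without R182C-TgN3 6-month mouse 3 to 6.41 without R182C-TgN3 6-month mouse 2. The gate requires these transcripts, so a cell that had lost them would not be counted. A gate without Acta2 gave 3.91 (p = 0.424, exact). The summed level of the 37 contractile genes was 40186 to 48516 CPM in R182C-TgN3 and 41971 to 44989 CPM in WT-TgN3 mice.

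Across genes, 1 of 8490 passed the test between genotypes in VSMCs (0.0118% called), the human transgene NOTCH3 (log2 fold change 2.42 ± 0.253, SE; adjusted p from edgeR 2e-05). At an unadjusted p under 0.05 there were 233 genes, and DESeq2 also called 1. Mouse Notch3 was at -0.08 ± 0.108, Acta2 at 0.10 ± 0.113, Tagln at 0.12 ± 0.142, Myh11 at -0.02 ± 0.128, Tpm2 at 0.17 ± 0.128, Pln at 0.07 ± 0.118 and Cnn1 at 0.18 ± 0.145, all with an adjusted p of 1.00 from edgeR. The next smallest p belonged to Ltbp4, a matrix protein gene that binds latent TGF-beta, at 13.9, 14.8 and 15.7 CPM in R182C-TgN3 mice (lowest, median, highest) and 23.4, 23.2, 49.5, 24.7 and 28.4 CPM in WT-TgN3 mice. Its groups did not overlap, as in 16 of 8490 genes (0.188%), and its log2 fold change was -0.88 ± 0.196 with an adjusted p of 0.762. Col14a1 (-1.27), Bach2 (-0.75) and Zfp622 (-0.60) followed, each with an adjusted p of 1.00. None of the 37 contractile, 31 matrix, 74 oxidative phosphorylation or 22 dissociation-stress genes was called, with medians of 0.04, 0.01, 0.16 and -0.07 beside -0.00 over all genes.

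Between ages, 10 of 8490 genes were called (0.118%), 2 higher (0.0236%) and 8 lower (0.0942%) at 9 months, with batch not separable, and in 70 (0.824%) the ages did not overlap. Il31ra, an interleukin 31 receptor gene, was at 27.7, 61.6, 108, 37.8 and 24.6 CPM in the 5 mice of 9 months and 228, 183, 283, 68.9, 222 and 101 CPM in the 6 of 6 months, with an overlap of the groups (-2.03 ± 0.293, adjusted p from edgeR 0.001555). Grik1, a kainate receptor gene, was lower (-1.95), and Nos1ap, an adaptor of neuronal nitric oxide synthase (1.27), and Tubb4b, a beta-tubulin (0.70), were higher. Xlr5a, Gstp1, Hist1h4c, Hist1h4h and Hist1h1e were also lower, and these have near-identical copies among which reads may be divided. Without single mice Grik1, Nos1ap, Tubb4b and Xlr5a lost their call in some fits. No gene of 9187 differed in its genotype difference between ages in edgeR, with 211 at an unadjusted p under 0.05 and 0 in DESeq2.

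The Acta2 range was set beside genotype as well. Of 5959 genes, 1 had an Acta2-high minus Acta2-low difference that differed between genotypes (0.0168%, 322 at an unadjusted p under 0.05, 0 in DESeq2). Homer1, a scaffold of glutamate receptor signalling, went from Acta2-low to Acta2-high cells from 92.6 to 25.2, 97.8 to 24.5 and 32.7 to 10.4 CPM in the R182C-TgN3 mice of 9 months and from 46.9 to 18.98, 17.8 to 19.4 and 13.6 to 14.8 CPM in those of 6 months. In WT-TgN3 mice it went from 64.1 to 57.5, 35.9 to 50.3, 38.5 to 32.0, 45.1 to 41.4 and 75.2 to 66.4 CPM. The interaction was -1.64 ± 0.306 (SE, adjusted p from edgeR 0.0359), and it lost its call in 9 of the 11 fits that left out 1 mouse. The contractile list had a median interaction of 0.00, and the spread of Acta2 within a mouse (log2 of the 90th over the 10th percentile) was 1.58 ± 0.223 for R182C-TgN3 (n = 6) and 1.61 ± 0.165 for WT-TgN3 (n = 5) (p = 0.786, exact permutation).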

How the data were processed

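Each library was made from 1 mouse with 10x Genomics 3′ chemistry on CD31-captured vessel fragments. The authors aligned and counted reads with Cell Ranger 7.0.0 against mm10 with human NOTCH3 added, and deposited filtered matrices of UMI counts per gene and barcode, with no normalization. From these counts the cell gates given in the report were applied, UMIs were summed per mouse and cell group, and genes were tested with edgeR 4.0.16 (quasi-likelihood test, TMM, filterByExpr, Benjamini-Hochberg, calls at adjusted p under 0.05) in R 4.3.3, with DESeq2 1.42.0 as alternative. Following the study, genes of ribosomal proteins, mitochondrial genes and those named Gm or Rik did not enter the fits. Mice needed 20 cells, or 10 per Acta2 group. Single values per mouse were tested by exact 2-sided permutation (scipy 1.17.1). The scripts were tested on simulated data. Named genes are the marker and gate genes, the 10 largest rises and falls among called genes (for the comparisons within a mouse, of at least 50 CPM and moved the same way in every mouse), the 5 smallest p where fewer than 5 were called, and up to 4 members per list at either end. The members, lists and rules were chosen with earlier results of these data known. Promoters are from a prepared set of RefSeq promoters. The set used here held no entry for Tagln, Myh11, Sh3bgr, Ptgis, Actg2, Csrp2, Nexn and Myocd, and chromosome 18 was left out. Some genes that met the naming rule are not reported here. The numbers in the titles pair same-aged mice of the 2 genotypes by name only. 0 columns of other samples were present.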

Additional observations from a re-analysis of the deposited data

Results flagged for a closer look

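In 56 groups of mice searched for a single value far from the others, 3 such values were found, and chance gives about 1 in 20. The VSMC share of R182C-TgN3 9-month mouse 2 was 4.97%, where the other R182C-TgN3 mice held 2.22% to 2.80%. Ltbp4 was at 49.5 CPM in the VSMCs of WT-TgN3 6-month mouse 3, where the other WT-TgN3 mice held 23.2 to 28.4 CPM. Tagln was at 7223 CPM in WT-TgN3 6-month mouse 1 against 8377 to 8823 CPM in the other WT-TgN3 mice, while Acta2 of that mouse, at 9895 CPM, lay within their range.

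The difference of Homer1 between Acta2-high and Acta2-low cells differed between genotypes by a test of that difference (interaction -1.64, adjusted p from edgeR 0.0359). In WT-TgN3 mice alone the difference was 0.09 (adjusted p 0.805). DESeq2 did not call it, and it lost its call in 9 of the 11 fits that left out 1 mouse, where its value ran from -1.77 to -1.44.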

How the results depend on the processing

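No main value reversed, and no gene among the 10 largest rises and falls of a comparison did. Other named genes, such as list members, were not followed in this count. Of genes called between VSMCs and pericytes, 3 were called in the opposite direction with the narrower pericyte gate. With endothelial and microglial UMIs at 0 it was 1 gene. List medians near 0 changed sign in some settings: between VSMCs and pericytes the matrix median ran from -0.46 (no low count filter) to 0.53 and inflammation from -1.73 (no filter) to 0.51, with Notch and glycolysis also on both sides, and between Acta2 groups matrix ran from -0.12 (no filter) to 0.35. Of the alternatives for the main values, 184 kept their call or stayed near their value or count. Another 29 moved, 1 gained and 1 lost a call. For the largest rises and falls 1240 kept and 47 lost a call, over settings in which the gene had an adjusted p. The VSMC to pericyte log2 difference ran from -1.31 (without WT-TgN3 6-month mouse 3, p = 0.0190, exact permutation) to -0.57 without single mice. The human to mouse NOTCH3 ratio gave 2.79 with the replicate block of 5 name pairs, where exact p = 0.0625 is the smallest possible. The numbers did not pair the mice: correlations of paired deviations were 0.10, -0.13, -0.05, 0.04 and 0.06, 1 of 10 mice correlated best with its own number, and the block left 1 genotype gene called, as before. Age genes numbered 19 in DESeq2, 151 with no low count filter, 20 with all genes kept and 5 to 16 without single mice (5 without R182C-TgN3 9-month mouse 1 or 6-month mouse 1, 6 without WT-TgN3 9-month mouse 2, and 16 without R182C-TgN3 9-month mouse 3 or 6-month mouse 3). Genotype by age gave 31 with no filter and 0 to 2 without single mice. VSMCs against pericytes gave 4924 genes with no filter, 1651 in WT-TgN3 mice alone and 1609 with cells thinned to 3000 UMIs. Acta2-high against Acta2-low gave 1159 in WT-TgN3 mice alone, 1179 matched on Malat1 (chosen after seeing the data, as was the narrower pericyte gate) and 1072 thinned. The Acta2 by genotype test gave 0 in DESeq2, 24 with no filter and 0 to 2 without single mice. Fewer mice or UMIs enter the subset and thinned fits, and more genes the unfiltered ones, and other causes were not tested. With endothelial and microglial UMIs at 0, 6 mice had enough pericytes.

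Depth limits pericytes most, at a median of 1993 to 4399 UMIs per cell against 5410 to 10124 in VSMCs. A count of 0 in pericytes limits detection only.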
